A study of Mus musculus with 4 samples.

Results

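The Regnase, Roquin and ZFP36 genes encode RNA-binding proteins that shorten the life of cytokine and activation mRNAs. The 9 genes described here are Zc3h12a, Zc3h12b, Zc3h12c and Zc3h12d of the Regnase family, Rc3h1 and Rc3h2, which encode the Roquins, and Zfp36, Zfp36l1 and Zfp36l2 of the ZFP36 family. They were taken by name, and all 14 non-control probes whose RefSeq accession belongs to one of them were used, out of 56605 probes and 22911 named genes on the array. The family was chosen by earlier results on these same arrays, namely the low Zc3h12a level of 1 subset, so its levels are a description.

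RNA came from CD8 T cells of spleen and lymph node, sorted from untreated C57BL/6 mice, 1 to 3 months old, that lack PD-1 (genotype PD-1-/-), the inhibitory receptor encoded by Pdcd1. The sort used CD44, which is raised on cells that have met antigen or divided, and CD62L, the receptor that lets lymphocytes enter lymph nodes. Subset P1 was CD44low CD62Lhigh, the naive phenotype, and P2 was CD44high CD62Lhigh, the central memory phenotype. Subset P3 was CD44high CD62Llow, the effector or effector memory phenotype, while P4, CD44low CD62Llow, was low for both markers. All 4 subsets carry the PD-1 deletion, so nothing here compares PD-1-deficient with PD-1-sufficient cells, and no source used here gives how many mice were pooled for each sort or whether mice were shared between subsets.

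Regnase-1, the product of Zc3h12a, is an endonuclease that cuts stem-loops in the mRNAs it binds, and in T cells the protease MALT1 cleaves it after antigen receptor signalling. The Roquins bind related stem-loops and recruit the CCR4-NOT deadenylase, which removes the poly(A) tail. The ZFP36 proteins bind AU-rich elements and recruit the same deadenylase; in T cells all these factors are known as brakes on activation and cytokine output.

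There was 1 single-colour array per subset, all on 1 slide, so no difference between subsets has a replicate check and none was tested. A level is the log2 processed signal minus the log2 of the array's 75th percentile (453 to 799 signal units), so 0 marks the 75th percentile of that array. Between 27827 and 30811 probes per array (49.2% to 54.4%) were well above background, as the scanner software marks them. The error used here is that of repeated spots, taken within each array for 300 probes spotted 10 times. From it, a difference between single spots was given a 95% half-width in log2 units. This was 0.18 at levels of 0 or more, 0.29 between -3 and 0 and 0.61 below -3. It covers spot noise within an array only, not the spread between arrays, mice or sorts. The 4 CD8 T cell markers (Cd3e, Cd3d, Cd8a and Cd8b1) were well above background on all 4 arrays. In bulk RNA, fewer cells of a type and less RNA per cell cannot be told apart.

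Of the 9 genes, 7 were well above background in every subset, Zc3h12c was so in P3 alone, and Zc3h12b was so nowhere. Among the 7, Zc3h12a was the one gene whose level spanned more than 2-fold across the subsets, with a range of 2.74 log2 units, and it was lowest in P4. The ranges of the other 6 lay between 0.28 (Zfp36) and 0.85 (Zfp36l1). For comparison, the 11834 named genes well above background on all arrays had a median range of 0.50, and 18.4% of them spanned at least 2-fold.

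**Figure D1:**
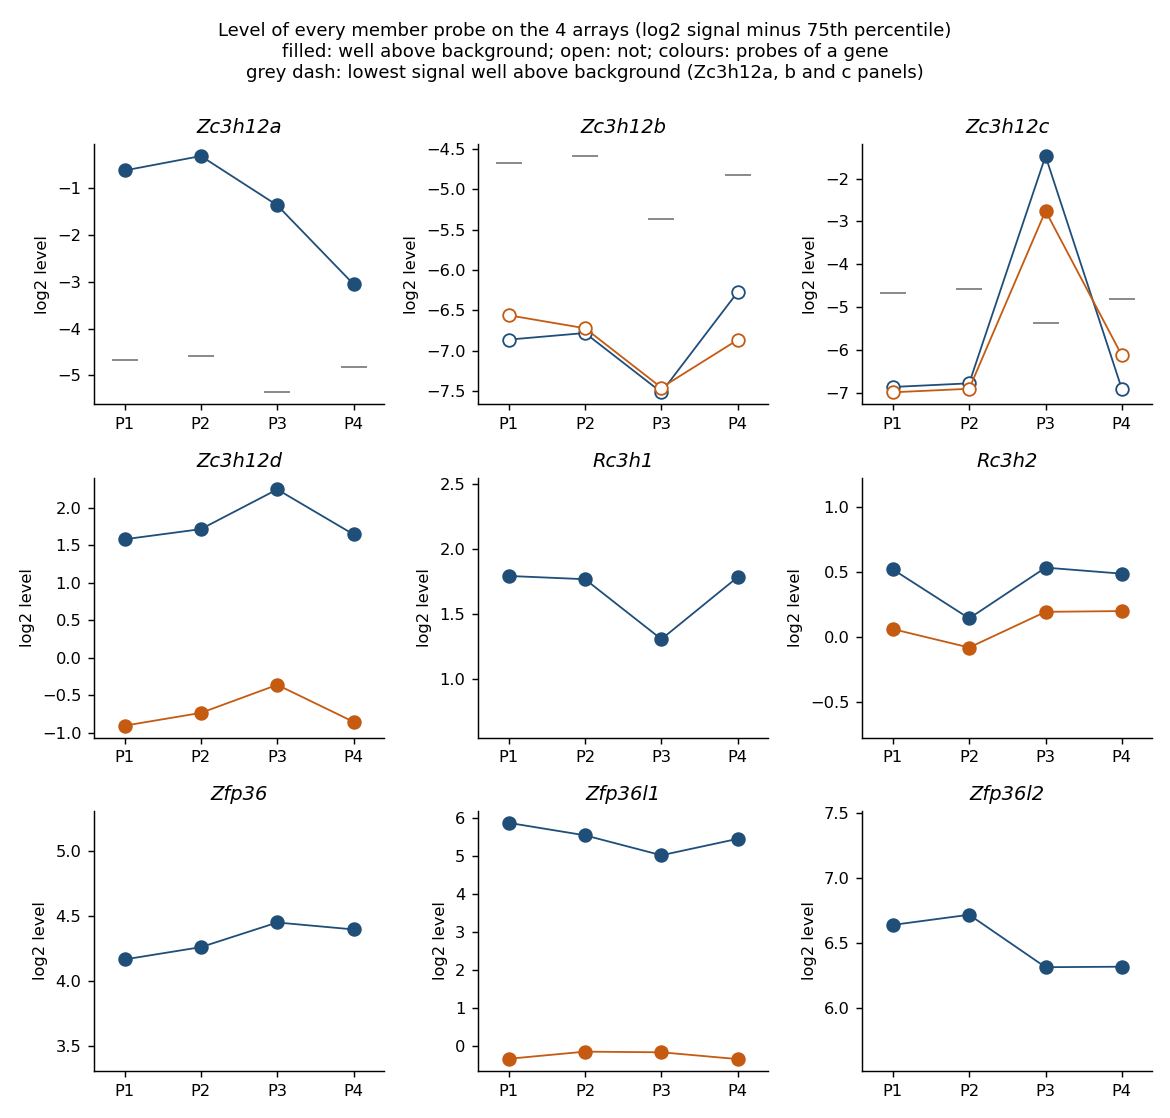
Level of all 14 probes in the 4 subsets, in log2 units relative to the array's 75th percentile (y axis, scaled separately in each panel), with 1 point per array and a colour per probe of a gene; filled points are well above background and open points are not, and grey dashes give the lowest signal well above background. Zc3h12a drops in P4, Zc3h12c rises out of the background in P3, and the brighter probes of the other 6 genes above background on all arrays stay within 0.85 log2 units.

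The Regnase family is described first, starting with Zc3h12a, because its P4 level stood apart. The 250 bases upstream of its annotated start (RefSeq, GRCm38.p6, chr4:125127882-125128131, minus strand) are shown. Among the family genes well above background in every subset, Zc3h12a had the widest range. The sequence runs 5′ to 3′ and capitals mark GGGCGG, the GC box, on either strand.
Zc3h12a: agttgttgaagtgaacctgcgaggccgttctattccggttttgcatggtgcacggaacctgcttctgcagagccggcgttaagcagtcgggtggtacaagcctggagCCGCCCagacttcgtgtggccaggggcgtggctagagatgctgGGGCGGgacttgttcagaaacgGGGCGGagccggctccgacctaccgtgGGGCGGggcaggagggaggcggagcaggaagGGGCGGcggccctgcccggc
It held 5 GC boxes and 21 CG dinucleotides, more CG than 83.7% of 32851 promoters, whose median was 6. A GC box was present in 32.7% of all those promoters and in 5 of 9 promoters of the family, which cover 8 of the genes. The AP-1 motif TGANTCA (both strands) was in 2 of the 9 against 6.75% of all, the Zc3h12a promoter not among them. A match to letters is not a binding site.

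The Zc3h12a probe (A_51_P297925) was at -0.63, -0.32, -1.37 and -3.05 in P1 to P4. The corresponding processed signals, before any scaling, were 312, 386, 309 and 54.5, with errors deposited for each spot of 31.4, 38.8, 31.2 and 6.57. P4 was therefore the lowest subset on both scales, while P1, P2 and P3 gave similar unscaled signals.

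Zc3h12a was 5.38-fold lower in P4 than in P1 (P4 minus P1 -2.43 log2 units), 6.67-fold lower than in P2 (-2.74) and 3.22-fold lower than in P3 (-1.69). Each of these differences was larger than the widest spot-noise half-width of 0.61. P2 and P1, the highest, were 0.31 apart, close to the half-width of 0.29, so their order is barely separated from spot noise. P3 lay below both, by 0.74 against P1 and 1.05 against P2; P3 minus P2 was under 2-fold with normexp background correction (-0.85) and in the authors' values (-0.98), and without scaling between arrays P3 minus P1 was -0.01 and P3 minus P2 -0.32. With normexp the P4 values shrank to -1.57, -1.80 and -0.94, the last under 2-fold, and without scaling P4 minus P3 was -2.50.

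Only a few genes shared this pattern. Among genes measured above background in all 4 subsets, ranked by the smallest of the 3 deficits in P4, Zc3h12a was the 2nd lowest of 11834 with -1.69, and the next gene, Aqp9, had -1.57. Of 12836 genes measured in every pair that includes P4, 13 (0.101%) fell short of P1, P2 and P3 alike by 2-fold or more in P4. Zc3h12a was chosen with its low P4 level known, so its rank is a description and no separate support. CD62Llow minus CD62Lhigh was -2.43 among CD44low cells and -1.05 among CD44high cells, and with 1 array per subset the difference between these values was not tested.

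The gene has 1 probe and 1 spot per array, in the next-to-last row (383 of 384) of the array. On P4 the spot had 13 neighbouring spots, of which 7 were well above background on every array. Those 7 lay a median of 0.12 log2 units above their own mean on the other arrays, with a range of -0.43 to 0.75. The Zc3h12a spot lay at -2.28. The local background at the spot was 27, against a median of 31 for the array. The low P4 value was thus not shared by those 7 spots, and the dimmer neighbours were not summarised.

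**Figure D2:**
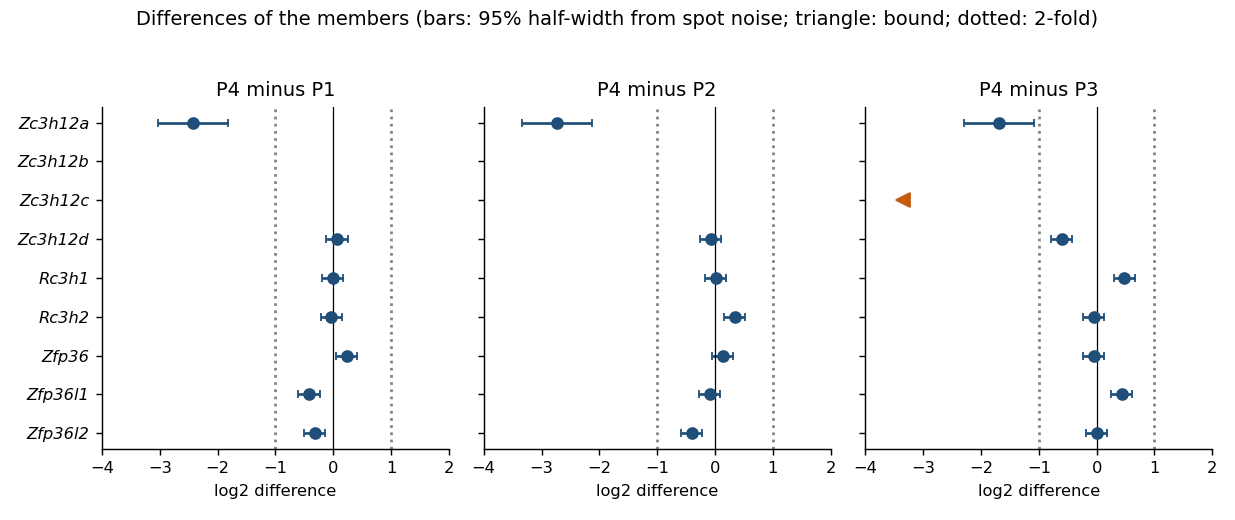
Difference of P4 from P1, P2 and P3 (x axis, log2 units) for each gene (y axis), where measured; horizontal bars are the 95% spot-noise half-width, the triangle is a bound and dotted lines mark 2-fold. Zc3h12a lies at -2.43, -2.74 and -1.69, Zc3h12c is measured against P3 only, and the rest lie inside 2-fold.

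The 3 genes with the most similar course over the 4 arrays, by Euclidean distance between centred levels among 11833 genes, were Nmnat2 (distance 0.91), Ly6c2 (0.92) and Ly6c1 (0.93), against a median distance of 2.14. Nmnat2 encodes an enzyme of NAD synthesis; its levels in P1 to P4 were -1.02, 0.33, -1.16 and -2.28. Ly6c1 and Ly6c2 encode near-identical Ly6C surface antigens whose probes may share signal. Likeness over 4 arrays is a description and is no evidence of common control.

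**Figure D3:**
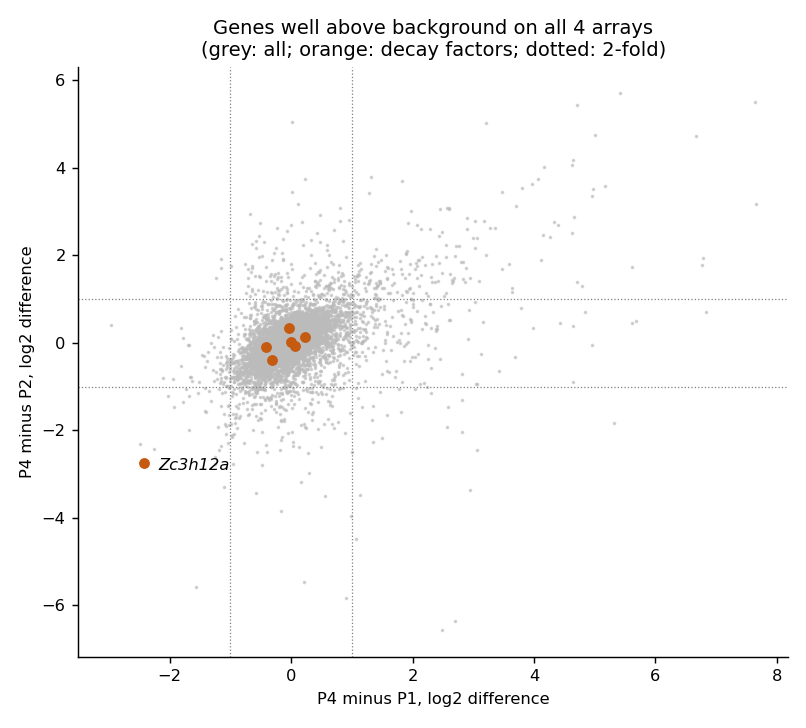
Each point is a named gene well above background on all 4 arrays, placed by P4 minus P1 (x axis) and P4 minus P2 (y axis) in log2 units; decay factors are orange and dotted lines mark 2-fold. Zc3h12a lies at -2.43 and -2.74, apart from the other family members, which lie within 2-fold on both axes.

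Zc3h12c encodes Regnase-3, a relative known mainly from macrophages and other myeloid cells. RefSeq gives it 2 starts, and the 250 bases upstream of each (GRCm38.p6, chr9:52168407-52168656 and chr9:52149364-52149613, both minus strand) are printed because the pair differs in base composition; capitals again mark GC boxes.
Zc3h12c start 1: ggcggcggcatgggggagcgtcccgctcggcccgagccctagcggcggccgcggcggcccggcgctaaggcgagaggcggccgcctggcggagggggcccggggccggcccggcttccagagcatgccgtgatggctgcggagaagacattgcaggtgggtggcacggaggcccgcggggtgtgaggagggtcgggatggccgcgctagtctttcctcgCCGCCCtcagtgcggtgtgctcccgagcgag
Zc3h12c start 2: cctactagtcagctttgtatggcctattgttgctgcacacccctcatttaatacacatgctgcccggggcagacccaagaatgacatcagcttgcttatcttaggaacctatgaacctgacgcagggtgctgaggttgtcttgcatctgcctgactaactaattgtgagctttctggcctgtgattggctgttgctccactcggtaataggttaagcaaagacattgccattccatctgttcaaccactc
Start 1 had 33 CG dinucleotides, more than 96.0% of promoters, and 1 GC box; start 2 had 3 CG dinucleotides and no GC box. The array values do not say which start was used.

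The brighter Zc3h12c probe (A_52_P763562) was at -6.87, -6.78, -1.47 and -6.92 in P1 to P4, with processed signals of 4.13, 4.37, 288 and 3.75. The second probe (A_55_P2831073) was at -6.99, -6.91, -2.75 and -6.13. Both probes were well above background in P3 alone.

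Set against the dimmest signal that counts as well above background on each other array, the brighter probe in P3 exceeded P1 at least 9.17-fold, P2 at least 8.65-fold and P4 at least 10.2-fold. The second probe gave at least 3.77-fold, 3.56-fold and 4.19-fold. Of all 22911 named genes, 942 (4.11%) were likewise well above background in P3 alone.

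Markers of several other cell types also stood highest on the P3 array. The 7 dendritic cell and class II genes passed that mark for 2, 5, 7 and 5 genes in P1 to P4, and their summed signal, in units of the array's 75th percentile, was 1.53, 5.07, 161 and 5.22. Of 7 macrophage and monocyte genes, 2, 4, 6 and 4 were above background, with sums of 2.42, 3.20, 27.8 and 2.87. Xcr1 and Clec9a, which mark cross-presenting dendritic cells, and Lyz2 and Adgre1, which mark monocytes and macrophages, were above background in P3 alone, while Fcgr1 was so nowhere. Csf1r, the receptor for the macrophage growth factor, was above background on all arrays and, on this scale, lowest in P3 (-0.65, -0.52, -1.15 and -0.62 in P1 to P4).

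B cell genes were above background for 2, 3, 5 and 4 of 6, and Pax5 was so nowhere. Their sums were 5.56, 5.01, 7.94 and 4.75, with Cd79b giving most of each. Erythroid genes were above background for 1, 2, 2 and 2 of 4, with sums of 0.144, 0.282, 4.99 and 0.373. NK genes were above background for 2, 3, 3 and 3 of 4, and Ncr1 was so nowhere. Their sums of 78.0, 126, 174 and 132 were carried by Nkg7. Nkg7 and Klrb1c were highest in P3, but Klra8 was highest in P2 (2.04, against 0.79 in P3). Of the 3 neutrophil genes on the array, 3, 3, 3 and 2 were above background, with sums of 137, 137, 103 and 137 that Csf3r carries; S100a8 (-4.64, -4.17, -2.09 and -6.19, the last not above background) and S100a9 (-3.02, -2.30, -0.23 and -3.92) were highest in P3 and lowest in P4. The CD8 T cell genes summed to 515, 436, 382 and 436. The part of other cell types in the Zc3h12c signal of P3 was not tested. Between P4, where Zc3h12a was lowest, and P2, where it was highest, the dendritic and macrophage sums were 5.22 and 2.87 against 5.07 and 3.20, but 2 of 4 measured macrophage genes, Mpeg1 (P4 minus P2 -1.27) and Aif1 (-1.36), and 1 of 5 dendritic genes, Itgax (-1.33), were at least 2-fold lower in P4. Their part in the Zc3h12a value was not tested.

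**Figure D4:**
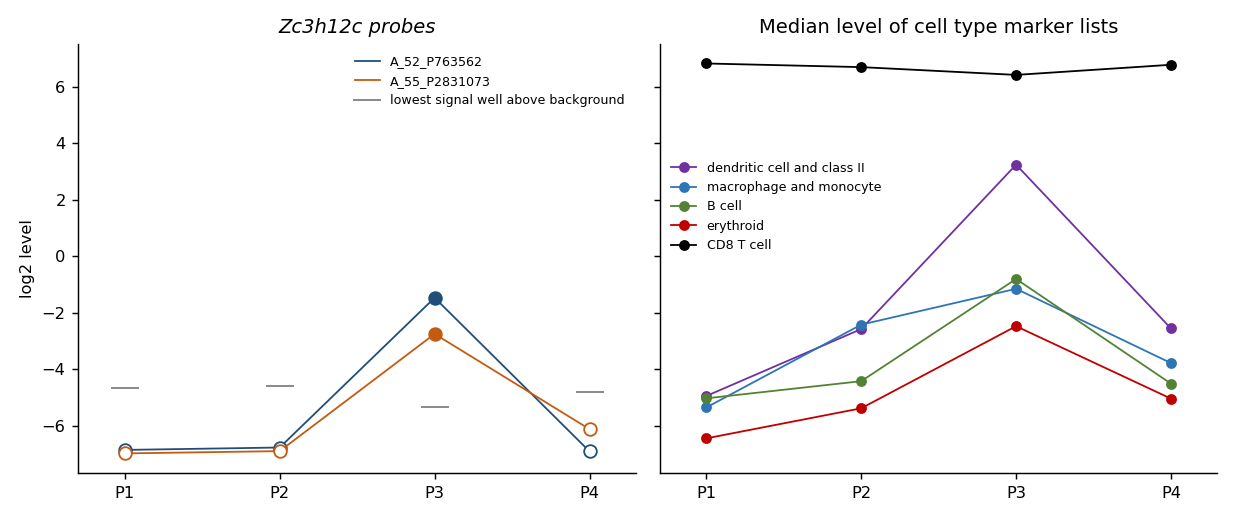
Levels of both Zc3h12c probes (left; open points are not well above background) and the median level of each marker list (right) in P1 to P4, both in log2 units relative to the array's 75th percentile. Zc3h12c and the dendritic and class II median (3.25 in P3, -2.56 in P4) are highest in P3, while the CD8 T cell median stays between 6.43 and 6.83.

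Zc3h12d encodes Regnase-4, a family member known from lymphocytes. Its brighter probe (A_52_P648688) was at 1.58, 1.72, 2.25 and 1.65 in P1 to P4, and its other probe (A_66_P107176) was at -0.91, -0.74, -0.36 and -0.86. Both were highest in P3, by 0.67 and 0.55 over P1, beyond spot noise but under 2-fold. P1, P2 and P4 differed by no more than 0.14 on the brighter probe, within spot noise. Regnase-2, encoded by Zc3h12b, was not well above background with either probe on any array (levels -7.52 to -6.27), and no order can be read from those values.

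Roquin-1, encoded by Rc3h1, is the factor whose point mutation causes the lupus-like disease of sanroque mice. Its probe (A_55_P2096305) was at 1.80, 1.77, 1.31 and 1.79 in P1 to P4. P1, P2 and P4 lay within 0.03 of each other and P3 was 0.46 to 0.49 below them. Without scaling between arrays P3 was instead the highest. There the median of all genes was also higher in P3, by 0.62 over P1 and 0.68 over P2. The direction of the P3 difference thus rests on the arrays being scaled, and was kept under 9 of 10 alternatives.

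Roquin-2, encoded by Rc3h2, overlaps with Roquin-1 in function. Its brighter probe (A_51_P158400) was at 0.52, 0.14, 0.53 and 0.48 in P1 to P4, and its second (A_66_P114959) at 0.06, -0.08, 0.19 and 0.20. P2 was lowest on both probes, by 0.38 and 0.14 against P1, the second within spot noise. The brighter probe's spot lay in a locally bright area of the P1 array.

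Zfp36 encodes tristetraprolin, the founding member of its family and itself an immediate early gene. Its probe (A_55_P2797255) was at 4.16, 4.26, 4.45 and 4.40 in P1 to P4, the narrowest range of the 7 genes. P3 and P4 differed by 0.05 and P1 and P2 by 0.09, both within spot noise.

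Zfp36l1, which with Zfp36l2 restrains proliferation during lymphocyte development, gave discordant probes. The brighter (A_55_P2849906) was at 5.86, 5.53, 5.01 and 5.44 in P1 to P4, so P3 was 0.85 below P1. The other (A_66_P112567) was at -0.34, -0.15, -0.17 and -0.35, with P3 0.17 above P1. The probes therefore gave no common direction for Zfp36l1 in P3.

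The Zfp36l2 probe (A_66_P114102) was at 6.64, 6.72, 6.32 and 6.32 in P1 to P4. P3 and P4 differed by less than spot noise and lay 0.32 to 0.40 below P1 and P2. The direction in P3 turned with the scaling, since P3 was above P1 with quantile normalization, in the authors' values and without scaling. P4 stayed below P1 and P2 under all 10 alternatives, by 0.07 to 0.53.

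Counted over the pairs, P4 against P1 had 1 of 7 measured genes at least 2-fold lower, Zc3h12a, and none higher, beside 1.75% of all measured genes lower and 5.46% higher. Against P2 it was again 1 of 7 lower and none higher (3.43% of all genes lower and 4.85% higher), and against P3 it was 2 of 8 lower, Zc3h12a and Zc3h12c, and none higher (8.92% lower and 4.15% higher). P2 and P1 had 0 of 7 at least 2-fold apart (7.29% of all genes). P3 against P1 had 1 of 8 higher, Zc3h12c, and none lower (12.4% of all genes higher and 7.11% lower), and P3 against P2 had Zc3h12c higher (10.5%) and Zc3h12a lower (5.69%). Zc3h12c was above background in P3 alone, so in each pair with P3 it could only be counted as higher there. Taking both directions together, the shares of all genes were 7.21%, 8.27% and 13.1% for P4 against P1, P2 and P3, and 19.5% and 16.2% for P3 against P1 and P2. The median P4 minus P1 of the 7 was -0.03, beside -0.06 for all genes. Apart from Zc3h12a, the measured genes lay between -0.42 (Zfp36l1, brighter probe) and 0.23 (Zfp36) in that pair. These values and that of Zfp36l2 (-0.32) were beyond spot noise but under 2-fold. All 3 comparisons of P4 share the P4 array.

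The sort markers allow each gene to be read along CD62L within each CD44 class. For Zc3h12d, CD62Llow minus CD62Lhigh was 0.07 among CD44low cells and 0.53 among CD44high cells, and for Rc3h1 it was -0.01 and -0.46. For Rc3h2 it was -0.03 and 0.39, and for Zfp36 0.23 and 0.19. Zfp36l1 gave -0.42 and -0.52 on its brighter probe but -0.01 and -0.02 on the other, and Zfp36l2 gave -0.32 and -0.40. Among CD44high cells the sign for Rc3h1, Zfp36l1 (brighter probe) and Zfp36l2 turned without scaling between arrays. For Zfp36l2 it also turned with quantile normalization and in the authors' values. Zc3h12a was thus the only one of the 7 genes that differed by 2-fold along CD62L among CD44low cells, and its difference was the larger among CD44low cells, whereas those of Zc3h12d, Rc3h1 and Rc3h2 were larger among CD44high cells; none of these contrasts between contrasts was tested.

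The proteins that regulate these factors were looked at next. None of 8 regulators (MALT1 and its partner BCL10, the kinases IKK-beta, IRAK1, p38-alpha and MK2, the ubiquitin ligase subunit beta-TrCP, and ARID5A) was 2-fold apart between P4 and P1, beside 7.21% of all genes. Their median difference was -0.33 beside -0.06 for all genes. Between P4 and P2 the median was -0.30 beside 0.01. Arid5a was the 1 regulator of 8 past 2-fold (P4 minus P2 -1.11), beside 8.27% of all genes apart. Its other probe gave -0.89, under 2-fold. ARID5A protects some Regnase-1 target mRNAs from cleavage; Arid5a was at 4.31, 4.84, 3.86 and 3.73 in P1 to P4. Malt1, named here after its values were seen because its product cleaves Regnase-1, was at 2.91, 3.34, 2.63 and 2.38, also highest in P2 and lowest in P4.

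The decay machinery that Roquin and ZFP36 proteins recruit stayed within 2-fold across the subsets. None of 18 deadenylation genes, 11 decapping and 5′-to-3′ decay genes or 11 exosome genes was 2-fold apart between P4 and any other subset. The share was 7.21% to 13.1% of all genes, and 4.28% to 9.83% of those above background on both arrays. Every gene of these lists was well above background on all arrays. Their median P4 minus P1 was -0.10, -0.19 and -0.01. Against P3 the medians were 0.22, 0.02 and 0.15. Nor did any of these genes differ by 2-fold between P1, P2 and P3. There the share was 7.29% to 19.5% of all genes, and 5.06% to 14.3% of those above background on both arrays.

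A further list of 9 genes held other proteins that bind AU-rich elements and nucleases whose NYN domain resembles the catalytic domain of Regnase. N4bp1, a nuclease that MALT1 also cleaves, was at -0.19, 0.71, 0.89 and 0.05 in P1 to P4, past 2-fold for P3 minus P1 (1.08). Khnyn, a cofactor of the antiviral protein ZAP, was at -0.71, -0.92, 0.17 and -0.10, past 2-fold for P3 minus P2. Neither had its lowest level in P4, unlike Zc3h12a. Nynrin was well above background in P1 alone (-3.63).

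Among target mRNAs the differences between subsets were wider. Of 14 mRNAs known as targets of Regnase-1 or Roquin, 10 were measured between P4 and P1, of which 2 passed 2-fold upward in P4 and none downward (5.46% and 1.75% of all genes), with a median of 0.40 beside -0.06 for all genes. Against P2, 2 of 9 were higher in P4 and 1 lower (4.85% and 3.43% of all genes), with a median of 0.21 beside 0.01. Ctla4, an inhibitory receptor, was at -1.44, -1.02, 1.69 and 0.76 in P1 to P4. Ier3, a stress-response gene, was at -2.31, -0.60, 2.92 and 2.09. Both were thus higher in the CD62Llow subsets than in the CD62Lhigh ones, and highest in P3 rather than in P4, where Zc3h12a was lowest.

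Nfkbiz, which encodes the inflammatory co-activator I-kappa-B-zeta, was at 2.87, 3.35, 2.60 and 2.18 on its brighter probe, lowest in P4 and at least 2-fold below P2. Its other probe gave -0.35 for P4 minus P2, under 2-fold. Icos, a co-stimulatory receptor, was at 2.89, 2.84, 3.46 and 2.87, and Tnfrsf4, which encodes OX40, was at 1.39, 1.30, 2.86 and 1.52. Both were highest in P3. Against P3, 3 of 13 measured targets were at least 2-fold lower in P4 and none higher (8.92% and 4.15% of all genes; median -0.59 beside 0.01), and P3 against P1 had 6 of 13 higher and none lower (12.4% and 7.11% of all genes; median 0.83 beside -0.08). Batf, a transcription factor of effector differentiation, was at 2.48, 2.64, 4.03 and 3.36, again highest in P3. A gene measured on 1 side only enters these medians and counts at its bound. Il12b and Ptgs2, above background in P3 alone, could therefore only be counted as higher in P3.

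Of 19 known ZFP36 targets, 10 were measured between P4 and P1, of which 4 passed 2-fold upward in P4 and none downward (5.46% and 1.75% of all genes), with a median of 0.62 beside -0.06. Against P2 the median lay on the other side, at -0.18 beside 0.01, with 3 of 11 higher and 1 lower (4.85% and 3.43% of all genes). Il10, among the higher genes against P1 and P2, was above background in P4 but in neither of them. Csf2, the 1 lower against P2, was above background in P2 but not in P4. The direction of both was therefore fixed by the filter. This list shares Tnf, Il2, Il6, Ptgs2 and Ier3 with the Regnase-1 or Roquin targets, and Fos with the immediate early genes. Ier3 is among the higher genes of both target lists, against P1 and against P2, so the counts of the lists are not separate. Ifng, the effector cytokine, was at 0.69, 4.67, 6.43 and 5.12 in P1 to P4. Ccl3, a chemokine of activated CD8 T cells, was at -3.29, 1.20, 4.61 and 4.36. Both were lowest in P1 and highest in P3.

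Il10, an anti-inflammatory cytokine, was well above background in P3 (0.01) and P4 (0.03) and not in P1 or P2. The proliferation genes split: Myc was at 3.54, 3.46, 2.11 and 3.28, lowest in P3, and Ccnd1 was at -3.43, -2.55, 1.13 and -2.87, highest in P3, its P4 spot lying in a locally bright area. Il2, Il1b, Ccl2 and Ptgs2 were above background in P3 alone, and Il6, Cxcl1, Cxcl2 and Lif were so nowhere. Vegfa, an angiogenic growth factor, was at -2.60, -2.76, -4.03 and -3.02, lowest in P3. Against P3, 6 of 15 measured ZFP36 targets were at least 2-fold lower in P4 and 2 higher (8.92% and 4.15% of all genes), with a median of -0.55 beside 0.01. Of the lower ones, Csf2, Il1b, Ccl2 and Ptgs2 were above background in P3 but not in P4. They could therefore only be counted as lower in P4. These P3 values come from the array whose dendritic and macrophage marker sums are given above, and the part of those cells in them was not tested.

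Immediate early genes, the rapid transcripts of activation and handling to which Zfp36 belongs, were well above background on all arrays for 14 of 14. Gene by gene, the median difference was 0.15 for P4 minus P1, beside -0.06 for all genes, 0.12 for P4 minus P2, beside 0.01, and 0.32 for P4 minus P3, beside 0.01. Between P4 and P1 the 2 of 14 past 2-fold (5.46% of all genes higher) were Hspa1a (1.92) and Hspa1b (1.53), near-identical heat shock genes whose probes may share signal. Hspa1a was at 3.45, 4.20, 5.59 and 5.36, so it was high in both CD62Llow subsets. Atf3, a stress-response factor, was at -2.90, -0.33, 0.63 and -2.13, lower in P4 than in P2 and P3. The part of immediate early induction in the Zc3h12a value of P4 was not tested.

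**Figure D5:**
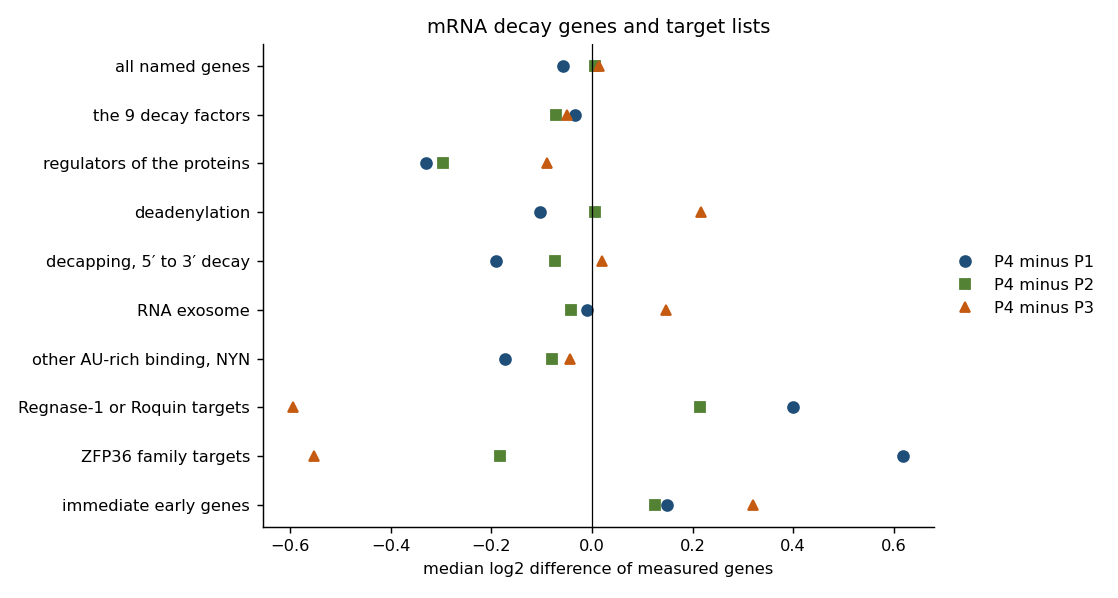
Median difference of each gene list between P4 and the other subsets (x axis, log2 units), 1 row per list and 1 symbol per comparison, beside the median of all measured genes. The deadenylation, decapping and exosome lists stay between -0.19 and 0.22, while the target lists reach 0.62 against P1 and -0.59 against P3.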

How the data were processed

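Single-colour Cy3 arrays were measured for 4 sorted subsets, 1 array each. Per the file headers, the authors extracted spot intensity with Agilent Feature Extraction (11.0.1.1 per the submitters' processing notes); the deposited processed signal is background-subtracted and not scaled between arrays. The authors' deposited value table holds log2 values, used as an alternative. Here control spots and outlier-marked spots were left out, log2 processed signal was set relative to each array's 75th percentile, and probes were named from RefSeq accessions (GRCm38.p6 gene table; 32994 probes named, 23611 not). The array header names a build other than that of the gene table, so no probe coordinates are given.

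A gene was its brightest named probe. A pair counted as measured where either array, or both, lay well above background; the dim side was raised to that array's lowest signal well above background. At least 2-fold (1 log2 unit) was counted. Every family gene was named; of each other list, up to 4 genes per pair past 2-fold on 2 measured sides, and the 3 genes nearest in profile. Members and lists were chosen with earlier results of these data known. 1 gene of the regulator list is not reported here and was left out of that list's counts and medians. The counting was tested on simulated data. Alternatives were quantile normalization, median centring, normexp (offset 50, limma 3.58.1 in R 4.3.3), other filters on dim probes, the mean of probes, outliers kept, the authors' values, 4-fold, bright areas left out and, chosen after seeing the data, no scaling. Python 3.11.15 was used.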

Additional observations from a re-analysis of the deposited data

How the results depend on the processing

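No paired analysis was possible because each subset has 1 array. No difference of at least 2-fold changed sign; 15 of the 38 smaller ones did under some alternative. Rc3h1 without scaling was 0.25 for P3 minus P1, 0.27 for P3 minus P2 and -0.34 for P4 minus P3, and Zfp36l2 P3 minus P1 was 0.27 with quantile normalization and in the authors' values and 0.41 without scaling. Of 7 family differences of at least 2-fold, 60 of 64 values under the alternatives stayed at or past 2-fold; of the smaller ones, 5 of 380 values passed it, all without scaling and all in pairs with P3. Without scaling, an alternative chosen after seeing the data, the median of all genes was 0.62 for P3 minus P1, 0.68 for P3 minus P2 and -0.78 for P4 minus P3. The count for P4 minus P3, 2 as reported, was 1 with normexp, with both arrays above background, in the authors' values and at 4-fold, and 3 without a filter or floor and without scaling. The count for P3 minus P1, 1 as reported, was 0 with both arrays above background and in the authors' values, neither of which measures Zc3h12c, and 3 without scaling. The count for P3 minus P2, 2 as reported, was 1 with normexp, with both arrays above background and at 4-fold, 0 in the authors' values and 3 without scaling. Zc3h12a with normexp was -1.57 for P4 minus P1 (range over 10 alternatives -2.52 to -1.57), -1.80 for P4 minus P2 (-2.82 to -1.80) and -0.94 for P4 minus P3 (-2.50 to -0.94); the last was -2.50 without scaling. The cause was not tested. Signal over background limits Zc3h12b everywhere and Zc3h12c outside P3.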
